A study of Mus musculus with 4 samples.

Results

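Genes for 10 secreted ligands that act on blood vessels and their supporting cells were followed in mouse prostate stroma: the angiopoietins Angpt1 and Angpt2, the angiopoietin-like gene Angptl4, the vascular endothelial growth factors Vegfa, Vegfb and Vegfc, and the platelet-derived growth factors Pdgfa, Pdgfb, Pdgfc and Pdgfd. They were selected by symbol from 25744 genes to which the deposited transcripts could be assigned, and all 10 were found. Of these, 9 were among the 11271 genes tested; Pdgfb stayed below the minimum of 1 FPKM in every library. FPKM is the number of sequenced fragments scaled by transcript length and by the mapped fragments of the library, summed here per gene, so levels can be compared between genes. Adult C57BL/6 mice were the source, and the cells had been isolated by fluorescence sorting: they carried Sca-1 and lacked CD24, CD49f and the lineage markers. Proximal stroma surrounds the ducts near the urethra and distal stroma the duct tips. Each region had 2 libraries, numbered 2 and 3 in both, and the labels give no genetic change or treatment for either region. They list neither the lineage markers nor the number of animals behind a library, so p-values reflect no more than how far these libraries lie apart, which could be technical spread. Where a region has a pair of values, number 2 comes first.

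Angiopoietins are ligands of the receptor Tie2 (gene Tek) on endothelial cells. Angpt1, made by cells around vessels, activates the receptor and stabilises vessels, and Angpt2 opposes or mimics it depending on context. Vegfa drives endothelial growth and permeability through Kdr and Flt1, Vegfb binds Flt1, and Vegfc acts mainly on lymphatic endothelium through Flt4. The platelet-derived growth factors act on mesenchymal cells: Pdgfa and Pdgfc signal through Pdgfra, Pdgfb through both receptors, and Pdgfd mainly through Pdgfrb. Angptl4 inhibits lipoprotein lipase and is known as a gene induced by fasting and hypoxia.

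Several of these genes make alternative transcripts, and the stretches by which the listed forms differ are printed because the values of the forms are given below. The deposited tables give transcript lengths and no exons. A form was therefore matched to an exon of the GENCODE M21 annotation (GRCm38, the assembly of mm10) when its length differed from the next form by exactly the length of that exon or stretch. Capitals mark lysine and arginine codons in Vegfa and Pdgfa, where basic residues bind heparin and matrix, and cysteine codons in Pdgfd, whose growth factor domain is held together by cysteines. No capitals are used for Vegfb.
Vegfa exon of 72 bases, chr17:46022277-46022348, minus strand: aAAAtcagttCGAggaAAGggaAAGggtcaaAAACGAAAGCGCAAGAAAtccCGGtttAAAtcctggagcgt
Vegfa exon of 132 bases, chr17:46020991-46021122, minus strand: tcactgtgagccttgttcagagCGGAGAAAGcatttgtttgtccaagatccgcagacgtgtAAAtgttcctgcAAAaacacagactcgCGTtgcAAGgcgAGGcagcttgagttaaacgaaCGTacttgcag
Vegfb stretch of 101 bases, chr19:6985496-6985596, minus strand: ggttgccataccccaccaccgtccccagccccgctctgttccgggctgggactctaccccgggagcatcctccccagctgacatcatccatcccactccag
Pdgfa, 53 coding bases of an exon of 69 bases, chr5:138978638-138978690, minus strand: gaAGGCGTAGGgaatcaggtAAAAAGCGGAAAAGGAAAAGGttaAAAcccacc
Pdgfd exon of 215 bases, chr9:6359703-6359917, plus strand: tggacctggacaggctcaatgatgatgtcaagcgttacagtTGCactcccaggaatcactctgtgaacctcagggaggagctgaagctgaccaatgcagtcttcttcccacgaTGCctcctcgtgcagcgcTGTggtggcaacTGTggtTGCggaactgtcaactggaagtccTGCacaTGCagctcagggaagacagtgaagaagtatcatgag
Lysine and arginine codons made up 12 of 23 whole codons in the shorter Vegfa exon, 9 of 43 in the longer one and 11 of 17 in the Pdgfa stretch. The Pdgfd exon held 7 cysteine codons among 71.

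Libraries of the same number resembled each other more than libraries of the same region. Pearson's r of log2(FPKM + 1) across the tested genes was 0.952 between the 2 libraries of either number, 0.911 between the distal and 0.869 between the proximal libraries. Between 10154 and 11463 genes reached 1 FPKM per library. Fibroblast markers were abundant, with all 13 tested and a summed level of 5263 to 6848 FPKM. Ly6a, which encodes Sca-1, stood at 687 to 1016 FPKM. Of the genes for the 2 antigens the cells lacked, Cd24a (CD24) was detected in all libraries. It measured 9.64 and 19.1 FPKM in the distal libraries, 8.06 and 54.6 FPKM in the proximal ones, highest in proximal 3. Itga6 (CD49f) did not exceed 1.34 FPKM. The summed level of 17 endothelial markers was 35.3 and 27.7 FPKM in distal and 36.7 and 23.4 FPKM in proximal libraries, and Pecam1 did not exceed 1.56 FPKM. For 12 leukocyte markers the sum did not exceed 8.95 FPKM, and for 6 platelet markers it did not exceed 1.02 FPKM. The sum of 12 epithelial markers was 149 and 257 FPKM in distal 2 and distal 3 and 141 and 731 FPKM in proximal 2 and proximal 3, highest in proximal 3. Its largest part was Pbsn, at 98.6 and 137 FPKM in distal and 73.7 and 236 FPKM in proximal libraries. Of 10 tested markers 1, Krt19, was higher in both proximal libraries (7.93 and 15.2 FPKM against 22.0 and 156 FPKM) and 0 in both distal libraries. Among all tested genes these shares were 13.0% and 8.64%.

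Both angiopoietins had higher values in both proximal libraries. Pdgfb, at under 1 FPKM, had higher values in both distal libraries, and the regions overlapped for the other 7 ligands. Angpt2 stood at 0.127 FPKM in distal 2, 0.428 FPKM in distal 3, 5.12 FPKM in proximal 2 and 6.54 FPKM in proximal 3. Both proximal values lay above both distal values. The proximal mean of 5.83 ± 1.01 FPKM was 21 times the distal mean of 0.277 ± 0.213 FPKM (SD, n = 2 for both means). On the log2(FPKM + 1) scale, which understates the change of low genes, the difference was 2.42 ± 0.40 (SE). It was 2.44 between the libraries numbered 2 and 2.40 between those numbered 3. The authors' bounds for its single listed transcript ran from 0.0565 to 0.197 FPKM in distal 2 and from 0.305 to 0.551 FPKM in distal 3, and from 4.65 to 5.59 FPKM and 6.01 to 7.06 FPKM in proximal 2 and proximal 3. These bounds did not overlap between regions. They cover the estimation error within a library only.

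Angpt1 had the same order of regions, with proximal values below those of Angpt2 and distal values that overlapped with them. It measured 0.447 and 0.136 FPKM in the distal libraries, 2.51 and 3.76 FPKM in the proximal ones. The proximal mean of 3.14 ± 0.883 FPKM was 10.8 times the distal mean of 0.291 ± 0.220 FPKM (SD, n = 2 for both means), with a log2 difference of 1.67 ± 0.40 (SE). Within the numbers the difference was 1.28 for number 2 and 2.07 for number 3. Of its transcripts, 2 that differ in length by 3 bases carried all the signal. The shorter of these held 81.8% and 75.2% of the gene's FPKM in proximal 2 and proximal 3, and 50.4% and 50.5% in distal 2 and distal 3, where the authors' bounds on these low values were as wide as ± 82.96% of the value, so no difference in share is read from them.

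Neither angiopoietin passed the test over all genes (limma, adjusted p = 0.558 for Angpt2 and 0.908 for Angpt1), and 0 of the 9 ligands tested were called, against 0% of all tested genes. At an unadjusted p under 0.05, where 3.16% of all tested genes stood, the same 2 ligands were found (0.00158 for Angpt2 and 0.00798 for Angpt1). Proximal values exceeded distal values without overlap for 2 ligands, and for 13.0% of all tested genes. Both angiopoietins entered the test only through their proximal values, so these counts are not independent of the filter. With the library number as a block, which no label supports as a pairing, 3 of the 9 ligands were called, Angpt2, Angpt1 and Vegfc, as were 4.13% of all tested genes (limma). The smallest two-sided p that exact permutation of so few libraries allows is 0.333. In bulk RNA, fewer cells that make a transcript and less of it per cell cannot be told apart.

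Angpt4, the remaining angiopoietin and also a Tie2 ligand, showed the same order. It measured 5.81 and 6.07 FPKM in the distal libraries, 19.1 and 23.6 FPKM in the proximal ones, a log2 difference of 1.68 ± 0.37 (SE; limma, adjusted p = 0.859). The regions did not overlap, and in these cells Angpt4 was the most abundant of the angiopoietins. Their receptor Tek was low, at 2.04 to 3.12 FPKM with overlapping regions, and Tie1, its partner receptor, did not exceed 0.196 FPKM.

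Pericyte markers were listed beside the angiopoietins because cells around vessels are a known source of Angpt1. Of 12 such markers 8 were tested. In 4 of these the proximal values exceeded the distal values without overlap, as in 13.0% of all tested genes, and in 1 the reverse held, as in 8.64%. The 4 were Pdgfrb, Vtn, Abcc9 and Cox4i2, and the 1 was Cspg4, which encodes the proteoglycan NG2. Vtn, which encodes vitronectin, measured 1.52 and 1.72 FPKM in the distal libraries, 21.9 and 27.2 FPKM in the proximal ones. Abcc9, a potassium channel subunit, measured 0.539 and 1.17 FPKM against 1.97 and 4.11 FPKM, and Cox4i2, a subunit of cytochrome c oxidase, 1.66 and 1.53 FPKM against 6.10 and 2.97 FPKM. Cspg4 measured 15.1 and 17.7 FPKM against 7.25 and 7.73 FPKM. The summed level was 70.8 and 81.5 FPKM in distal and 119 and 127 FPKM in proximal libraries. The higher proximal sum came from Vtn and from Pdgfrb, at 33.9 and 36.6 FPKM in distal and 64.3 and 58.4 FPKM in proximal libraries. It is thus no measure of the pericyte list as a whole. Rgs5, a defining pericyte gene, did not exceed 1.06 FPKM, and Ndufa4l2 was listed at 0 in all 4 libraries. Their part in the angiopoietin difference was not tested.

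Angpt2 occupies chr8:18690263-18741562 on the minus strand (mm10) and lies inside the gene Mcph1 on the opposite strand. The library kit does not mark strand. The 2 genes share 0 annotated exon bases, and Mcph1 measured 1.83 and 0.647 FPKM in the distal libraries, 1.67 and 0.723 FPKM in the proximal ones, an order by number and not by region. Angpt1 occupies chr15:42424723-42676977 on the minus strand. It shares 14.2% of its exon bases with Gm17473 on the opposite strand, which was listed at 0 in all 4 libraries. Over the 4 libraries the genes with the level and pattern closest to Angpt2 were Dtna, Ppp1r1b, Krt4, Zmym1 and Agt, at Euclidean distances of 0.288, 0.593, 0.615, 0.675 and 0.676 in log2(FPKM + 1).

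**Figure D1:**
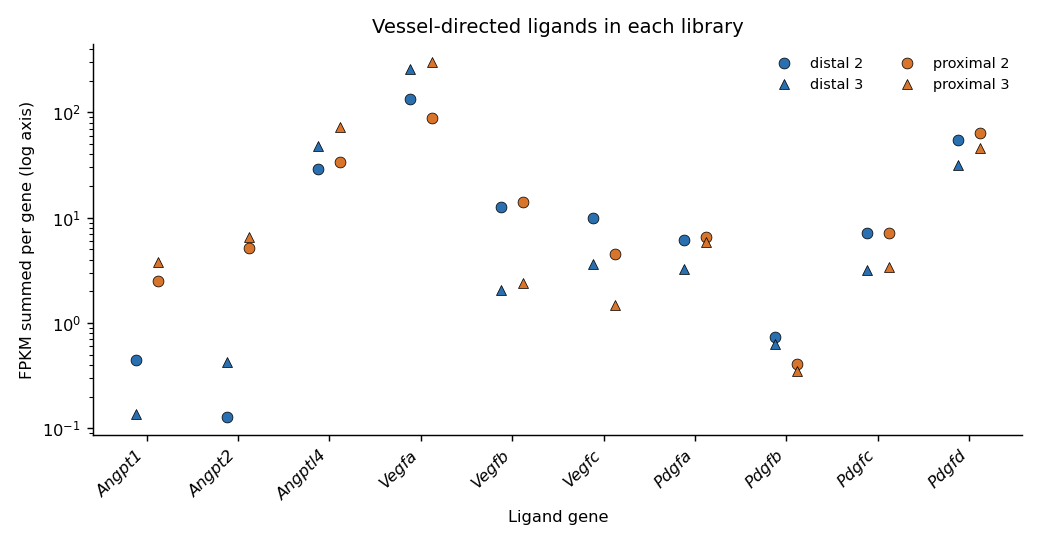
FPKM of the 10 ligand genes in each library on a log axis, with distal libraries in blue, proximal libraries in orange, number 2 as circles and number 3 as triangles. Angpt1 and Angpt2 separate by colour, while Vegfa, Vegfb and Angptl4 separate by symbol shape.

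Vegfa (chr17:46016993-46032369, minus strand) was the most abundant ligand and followed the library number, not the region. It stood at 134 FPKM in distal 2, 256 FPKM in distal 3, 88.0 FPKM in proximal 2 and 303 FPKM in proximal 3. Both libraries numbered 3 lay above both numbered 2, and the regions overlapped. The distal mean was 195 ± 86.0 FPKM and the proximal mean 195 ± 152 FPKM (SD, n = 2 for both means), a log2 difference of -0.18 ± 0.68 (SE; limma, adjusted p = 0.99991). The sign differed between the numbers, at -0.60 within number 2 and 0.24 within number 3. The mean difference of number 3 minus number 2 was 1.35 on the same scale.

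Vegfa signal was divided between 2 of its 8 listed transcripts, and the other 6 were listed at 0 in all libraries. The shorter, with 3327 bases, has the length of the form without either optional exon (Vegfa120, with 120 residues after the signal peptide), which diffuses freely. The longer, with 3459 bases, adds the 132-base exon printed above (Vegfa164), which binds heparin. The form that also has the 72-base exon (Vegfa188), known for tight binding to matrix, was among those listed at 0. The shorter form held 43.3% and 55.4% of Vegfa FPKM in distal 2 and distal 3 and 49.7% and 56.6% in proximal 2 and proximal 3. These shares overlapped between regions, and in each region the share was higher in number 3. Cufflinks estimates such shares from fragments that the forms largely have in common, and a listed 0 need not mean an absent form.

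Vegfb and Vegfc had the opposite order of numbers. Vegfb (chr19:6982473-6987651, minus strand), a ligand of Flt1, measured 12.7 and 2.06 FPKM in the distal libraries, 14.2 and 2.42 FPKM in the proximal ones. The libraries numbered 2 thus averaged 6.02 times those numbered 3, with a log2 difference between regions of 0.15 ± 1.02 (SE). The longer form with the 101-base stretch (Vegfb186, the more diffusible form) held 53.5% to 64.2% of Vegfb FPKM in 3 libraries and all of it in distal 3, where the shorter form (Vegfb167, which binds heparin) was listed at 0. Vegfc (chr8:54077606-54187096, plus strand), the lymphatic growth factor, measured 10.04 and 3.60 FPKM in the distal libraries, 4.50 and 1.47 FPKM in the proximal ones. Its distal value was the higher one within each number, with log2 differences of -1.004 and -0.89, but the regions overlapped (log2 difference -0.95 ± 0.66 (SE), limma, adjusted p = 0.99991).

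Angptl4 (chr17:33773750-33781830, minus strand) followed the number as Vegfa did. It measured 28.7 and 48.3 FPKM in the distal libraries, 34.0 and 72.5 FPKM in the proximal ones, all from 1 of its 2 listed transcripts. Both values of number 3 lay above both of number 2. The log2 difference between regions was 0.41 ± 0.50 (SE; limma, adjusted p = 0.99991). Lpl, the enzyme its protein inhibits, stood between 8.90 and 13.4 FPKM, lowest in proximal 3. The summed level of 7 adipocyte markers was 0.163 and 0.262 FPKM in distal and 1.16 and 2.46 FPKM in proximal libraries. Most of it came from Pparg, at 0.163 and 0.149 FPKM in distal and 0.755 and 2.14 FPKM in proximal libraries. Adipoq did not exceed 0.0332 FPKM, and 0 of the 7 markers were tested.

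**Figure D2:**
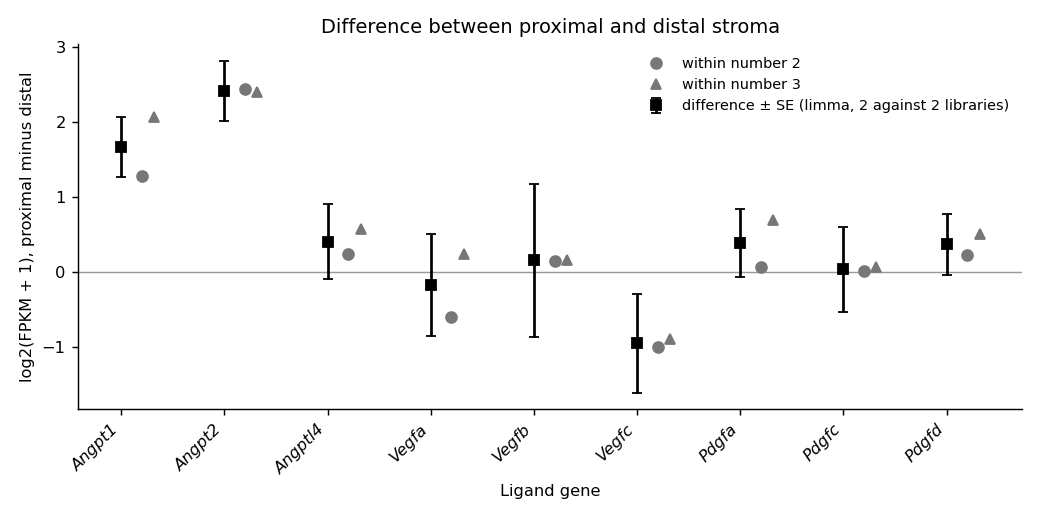
Log2 difference of proximal minus distal stroma for the 9 ligands tested, with black squares and bars for the limma estimate ± SE over 2 against 2 libraries and grey symbols for the difference within number 2 (circles) and number 3 (triangles). Angpt2 and Angpt1 lie at 2.42 and 1.67 and Vegfc at -0.95, and the bars of the other 6 ligands reach across 0.

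Vegfa and Angptl4 are both known hypoxia-induced genes, so a list of 19 other hypoxia-induced genes was read across the libraries. Of its 16 tested members, 11 had both libraries numbered 3 above both numbered 2, where 20.2% of all tested genes did, and 2 had the reverse order, where 50.4% of all tested genes did. The median difference of number 3 minus number 2 was 0.86 for the list and -0.33 for all tested genes. Slc2a1, a glucose transporter, stood at 34.2 and 24.3 FPKM in number 2 and at 83.1 and 95.0 FPKM in number 3 (distal, then proximal), and the glycolytic enzyme gene Hk2 at 18.7 and 12.05 FPKM against 43.7 and 46.3 FPKM. The 2 genes with the reverse order were Egln1 and P4ha2. Egln1 measured 20.6 and 20.0 FPKM in number 2 against 1.39 and 1.68 FPKM in number 3. P4ha2 measured 23.6 and 23.7 FPKM against 18.4 and 16.7 FPKM. All of these genes were chosen after their values were seen. Between regions the median of the list was 0.01, against 0.09 for all tested genes, and 0 members were called (limma). Of the 16 tested, 2 were higher in both proximal libraries, Bnip3 and Ddit4, and 0 in both distal libraries. Among all tested genes these shares were 13.0% and 8.64%. Bnip3 measured 9.46 and 3.17 FPKM in distal and 14.8 and 10.2 FPKM in proximal libraries. Of 10 tested lipid genes known as targets of PPAR receptors, which also induce Angptl4, 2 were higher in number 3 and 3 in number 2. Among all tested genes these shares were 20.2% and 50.4%. The median difference of number 3 minus number 2 was -0.30 for these lipid genes, against -0.33 for all tested genes. Between regions 4 of them were higher in both proximal and 1 in both distal libraries, against 13.0% and 8.64% of all tested genes. Fabp4 had the largest regional difference, at 0.220 and 2.21 FPKM in distal and 4.98 and 15.0 FPKM in proximal libraries. In the epithelial list, 9 of 10 tested markers also had both libraries numbered 3 above both numbered 2. The part of hypoxia, of PPAR receptors or of epithelial cells in the Vegfa and Angptl4 levels was not tested.

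Among the platelet-derived growth factors, Pdgfd (chr9:6168584-6378850, plus strand) was by far the most abundant. It measured 54.3 and 31.9 FPKM in the distal libraries, 64.0 and 45.7 FPKM in the proximal ones. The proximal library was the higher one within each number, but the regions overlapped (log2 difference 0.37 ± 0.41 (SE), limma, adjusted p = 0.99991). Its 3 listed transcripts were all above 4 FPKM in every library. The form without the 215-base exon printed above, whose annotated counterpart encodes 261 residues in place of 370, held 29.5% and 32.6% of Pdgfd FPKM in distal and 35.5% and 23.2% in proximal libraries. These shares overlapped between regions.

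Pdgfa (chr5:138976014-138997370, minus strand) and Pdgfc (chr3:81036416-81214040, plus strand), both ligands of Pdgfra, stood at similar levels. Pdgfa measured 6.11 and 3.28 FPKM in the distal libraries, 6.48 and 5.94 FPKM in the proximal ones, with distal 3 apart from the other three. All of it came from the form without the 69-base exon, and the longer form, whose basic stretch is known to retain the protein on matrix, was listed at 0 in all 4 libraries. Pdgfa shares 26.1% of its annotated exon bases with 6330403L08Rik on the opposite strand, so fragments of the 2 genes cannot be told apart there. Pdgfc measured 7.13 and 3.19 FPKM in the distal libraries, 7.18 and 3.39 FPKM in the proximal ones, an order by number with a regional log2 difference of 0.04 ± 0.57 (SE). A form of Pdgfc that is longer by 59 bases, the length of an exon annotated in transcripts subject to nonsense-mediated decay, was listed at 0.825, 0.833, 1.60 and 0 FPKM in distal 2, distal 3, proximal 2 and proximal 3.

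Pdgfb (chr15:79995874-80014977, minus strand), which recruits pericytes when made by endothelium, had the lowest mean of the 10 ligands over the 4 libraries and in proximal stroma, while in distal stroma Angpt1 and Angpt2 were lower. It measured 0.729 and 0.631 FPKM in the distal libraries, 0.404 and 0.352 FPKM in the proximal ones. Both distal values lay above both proximal values, as for 8.64% of all tested genes, a set that does not include Pdgfb. At the authors' bounds for its transcript the lowest distal limit, 0.462 FPKM, lay below the highest proximal limit, 0.554 FPKM. With no filter on low values its log2 difference was -0.29 ± 0.13 (SE; limma, adjusted p = 0.999).

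**Figure D3:**
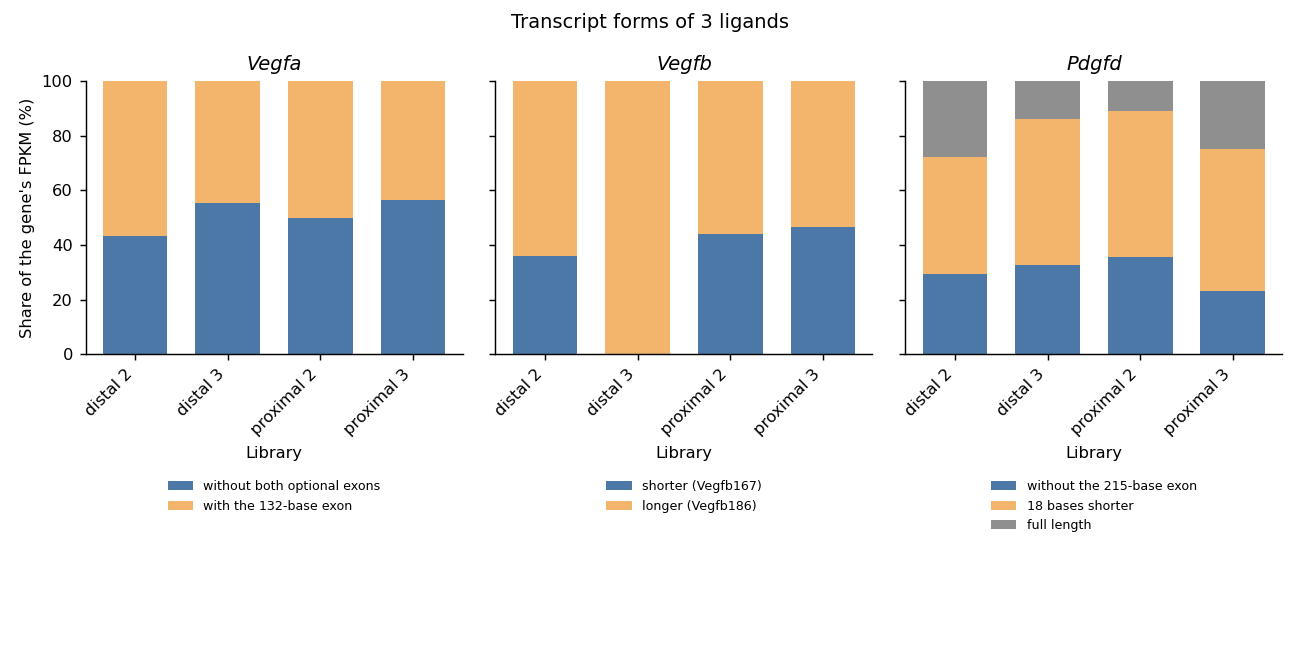
Share of the gene's FPKM held by each transcript form with signal, in percent, for Vegfa, Vegfb and Pdgfd in each library. The forms of Vegfa hold 43.3% to 56.7% each, the shorter Vegfb form is listed at 0 in distal 3, and the Pdgfd form without the 215-base exon holds 23.2% to 35.5%.

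Ranked by their mean over the 4 libraries, the ligands ran from Vegfa (195 FPKM) through Pdgfd (48.9), Angptl4 (45.9), Vegfb (7.86), Pdgfa (5.46), Pdgfc (5.22), Vegfc (4.90), Angpt2 (3.05) and Angpt1 (1.71) to Pdgfb (0.529). Vegfa was above Pdgfd, and Angptl4 above Vegfb, with no overlap between any of the 4 libraries. All other neighbours in this order overlapped. In distal stroma Vegfc was separate from Angpt2, the ligand next in the order, and in proximal stroma Angpt2 was separate from Angpt1, and Angpt1 from Pdgfb. The order of the lowest ligands differed between the regions: in distal stroma both values of Pdgfb lay above those of Angpt1 and Angpt2, and in proximal stroma both lay below. Of the 10 ligands, 7 were separate by number, 2 with higher values in number 3 and 5 with higher values in number 2, where 70.6% of all tested genes were separate by number. Their count is thus close to that of genes in general. Another 3 ligands, Angpt1, Angpt2 and Pdgfb, were separate by region, as were 21.6% of all tested genes. Pdgfb was not among the tested genes, and both angiopoietins were tested only through their proximal values. The count and the share thus come from unlike sets of genes.

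**Figure D4:**
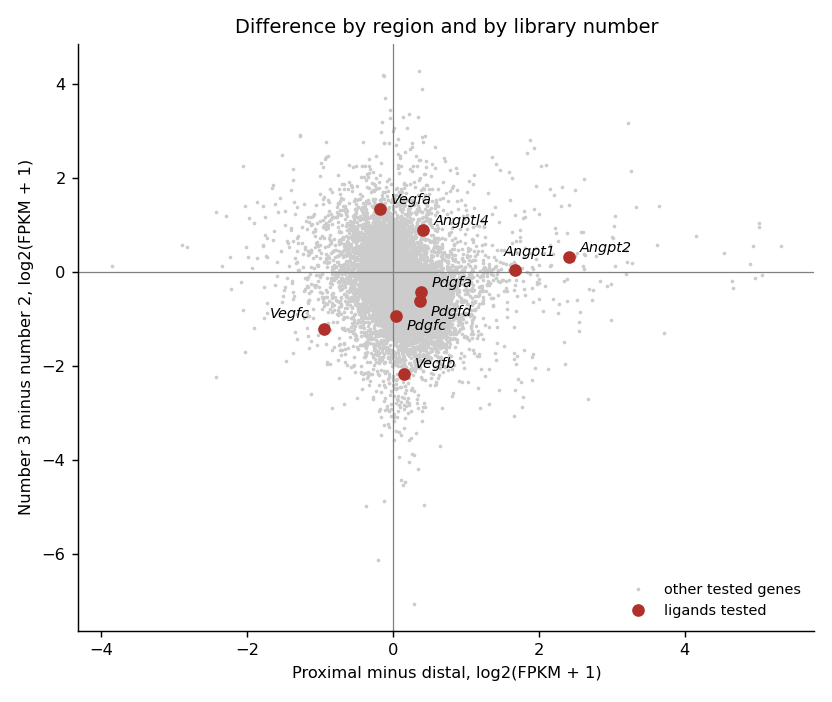
Difference of proximal minus distal stroma (horizontal axis) and of number 3 minus number 2 (vertical axis) in log2(FPKM + 1) for all 11271 genes tested, with 9 ligands in red. Angpt2 lies at 2.42 and 0.32 on the 2 axes, Vegfa at -0.18 and 1.35, and Vegfb at 0.15 and -2.16.

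The receptors of these ligands fell into abundant mesenchymal and scarce endothelial ones. Pdgfra, the receptor of fibroblasts, measured 97.9 and 82.6 FPKM in the distal libraries, 132.6 and 61.7 FPKM in the proximal ones, with overlapping regions. Pdgfrb, which binds Pdgfb and Pdgfd, measured 33.9 and 36.6 FPKM in the distal libraries, 64.3 and 58.4 FPKM in the proximal ones. The regions did not overlap for Pdgfrb (log2 difference 0.78 ± 0.30 (SE), limma, adjusted p = 0.99991).

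The co-receptor Nrp1 measured 67.9 and 70.5 FPKM in the distal libraries, 58.0 and 37.0 FPKM in the proximal ones, and Nrp2, a related co-receptor, 3.71 and 9.03 FPKM against 2.39 and 3.20 FPKM. Both had higher distal values without overlap, with log2 differences of -0.57 ± 0.36 and -0.87 ± 0.53 (SE). The endothelial receptors stayed low. Kdr stood between 2.02 and 2.50 FPKM, Flt1 between 0.474 and 2.67 FPKM with its higher values in number 3, and Flt4 did not exceed 0.122 FPKM. Of 12 receptors and co-receptors 9 were tested and 0 were called in either direction (limma), with 1 higher in both proximal libraries and 3, Nrp1, Nrp2 and the integrin subunit Itgb3, higher in both distal libraries. Among all tested genes these shares were 13.0% and 8.64%. Itgb3 measured 1.19 and 2.21 FPKM in the distal libraries, 0.609 and 0.502 FPKM in the proximal ones. The median log2 difference of the 9 tested was -0.20, against 0.09 for all tested genes.

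**Figure D5:**
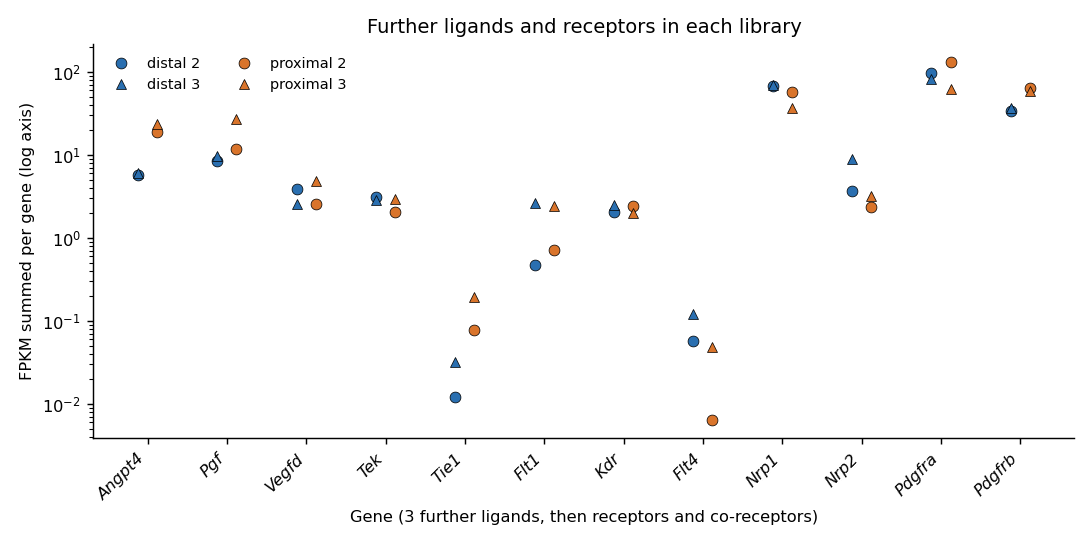
FPKM of 3 further ligands and 9 receptors and co-receptors in each library on a log axis, with the colours and symbols of the plot of the 10 ligands. Angpt4 and Pdgfrb lie higher in both proximal libraries and Nrp1 and Nrp2 in both distal libraries, while Tie1 and Flt4 stay below 0.2 FPKM.

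Of 9 other ligands of these families, 5 were tested and 0 called (limma). Beside Angpt4, placental growth factor Pgf, a ligand of Flt1, measured 8.54 and 9.82 FPKM in the distal libraries, 11.9 and 27.5 FPKM in the proximal ones, a log2 difference of 0.92 ± 0.50 (SE). Angptl7 measured 18.7 and 14.2 FPKM in the distal libraries, 9.17 and 6.38 FPKM in the proximal ones, a log2 difference of -0.997 ± 0.40 (SE). Neither overlapped between regions. Vegfd, a lymphatic growth factor like Vegfc, ranged from 2.54 to 4.89 FPKM with overlapping regions.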

How the data were processed

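Total RNA of 4 libraries of sorted prostate stroma was made into cDNA with an ultra-low-input kit that uses random and oligo-dT priming and amplifies by PCR, per the labels' protocols. The genome was mm10 and the tools were Cufflinks 0.0.6, TopHat2 0.6 and bcl2fastq 1.8.3, per the submitters' processing notes. The role and order of the tools is not given in the sources used here. Per the file headers, the deposited tables give FPKM with lower and upper bounds and a coverage signal for 63241 transcripts. They hold no counts and absolute depth is unknown. The median deposited coverage signal per FPKM was 5.22 to 6.34. The median half-width of the bounds was 13.8% to 14.8% of the value from 1 to 10 FPKM.

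Gene names came from the position of each transcript in GENCODE M21 (span overlap times length similarity of at least 0.8 with no rival gene near that score, else both ends within 100 bases of exons of 1 gene, else a similarity of at least 0.5 with any other gene under 0.25), which named 87.94%. For all 10 ligands RefSeq has the same gene there. FPKM was summed per gene, genes with a failed or capped estimate were left out (7 at the same minimum), and genes with at least 1 FPKM in 2 libraries were tested as log2(FPKM + 1) with limma 3.58.1 in R 4.3.3 (two-sided, no term but region, moderated with a trend on the mean, Benjamini-Hochberg over 11271 genes, threshold 0.05). The fit was tested on simulated data. Python 3.11.15 and matplotlib 3.10.9 were used for naming and plots. The 10 ligands were named in full. Also named, whatever their values, were 9 receptors and co-receptors (Tek, Tie1, Flt1, Kdr, Flt4, Nrp1, Nrp2, Pdgfra and Pdgfrb). Of the other lists described, up to 3 members with the largest difference and no overlap between regions were named. This rule was not carried out for the fibroblast list, and only in part for the lipid genes. Other genes, such as Itgb3, Cspg4, Rgs5, Ndufa4l2, Lpl, Adipoq, Pparg, Slc2a1, Hk2, Egln1, P4ha2, Pecam1, Ly6a, Cd24a, Itga6 and Pbsn, were chosen after their values were seen. The 5 genes most like the ligand with the smallest p were taken by distance over 4 libraries. Members and lists were chosen with earlier results of these data known. Alternatives changed the pseudocount, filter, scaling, trend, naming, transcript choice, replicate block or the libraries used.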

Additional observations from a re-analysis of the deposited data

How the results depend on the processing

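The call of 0 ligands and 0 genes held for every alternative that kept region as the only term and all 4 libraries. With the library number as a replicate block, 314 genes were called higher in proximal and 151 higher in distal stroma (4.13% of tested genes), and 3 ligands were called: Angpt2 (adjusted p = 0.00275), Angpt1 (0.0156) and Vegfc (0.0467, limma). A block on 4 libraries leaves little of a gene's own spread to estimate the error from. Both angiopoietins entered this fit, too, only through their proximal values. The deviations of same-numbered libraries from their region means had a correlation of 0.815 across genes, but with 2 pairs and no label that ties a number to an animal or day the libraries share only a number. With 1 library left out, genes called ranged from 0 to 36 (proximal, highest without distal replicate 2) and from 0 to 5 (distal, highest without distal replicate 3), and 0 ligands were called. Such a fit mixes region with number. Angpt2 then ranged from 2.25 to 2.59 and Angpt1 from 1.46 to 1.89. Leaving out distal replicate 3 put Vegfc at -1.58 and Pdgfa at 0.02, and leaving out distal replicate 2 put them at -0.32 and 0.75, the ends of their ranges. Ligands that changed sign ranged from -0.13 to 0.94 (Angptl4), -1.06 to 0.71 (Vegfa), -0.93 to 1.24 (Vegfb), -0.44 to 0.52 (Pdgfc) and -0.004 to 0.75 (Pdgfd). With the most abundant transcript only, Vegfb was at -0.22. Pdgfc was at -0.13 under quantile normalization and -0.0667 under median ratio scaling, which moved the median of all genes from 0.09 to -0.03 and -0.01. With a pseudocount of 0.1 Angpt2 was at 4.09 and Angpt1 at 3.15. Under naming by span and length only, Pdgfa and Vegfc gave no value, and under the 5 FPKM minimum Angpt1 and Vegfc gave none. The causes were not tested.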

Other observations

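Other genes that act on vessels were read in the same libraries. Of 10 secreted inhibitors of vessel growth 9 were tested and 0 called (limma), with 2 higher in both proximal and 2 higher in both distal libraries, where 13.0% and 8.64% of all tested genes were. Col18a1, the collagen from which endostatin is cut, measured 39.5 and 40.0 FPKM in the distal libraries, 65.5 and 77.8 FPKM in the proximal ones. Col4a3, the source of tumstatin, went the other way, at 39.0 and 28.7 FPKM in distal and 15.4 and 5.66 FPKM in proximal libraries. Thrombospondin 1 (Thbs1) measured 1304 and 3070 FPKM in the distal libraries, 279.8 and 856 FPKM in the proximal ones. Their log2 differences were 0.83 ± 0.31, -1.72 ± 0.54 and -2.03 ± 0.70 (SE).

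Of 22 other vessel-directed ligands 15 were tested and 0 called (limma), with 4 higher in both proximal and 3 higher in both distal libraries, against the same 13.0% and 8.64%. Their median log2 difference was 0.06, against 0.09 for all tested genes. Ephrin B2 (Efnb2), which marks arterial endothelium, measured 13.2 and 16.6 FPKM in the distal libraries, 8.50 and 8.55 FPKM in the proximal ones. Bmp4 stood at 55.5 and 38.4 FPKM against 109.5 and 72.9 FPKM, and Cxcl12 at 117 and 70.5 FPKM against 577 and 748 FPKM. Adrenomedullin (Adm), a peptide that dilates vessels, was abundant in all libraries, at 121 to 179 FPKM, with overlapping regions; it was chosen after its values were seen. Among 10 genes of ligand processing and matrix retention 9 were tested and 0 called (limma). Of these, 2 had higher values in both distal libraries, glypican 1 (Gpc1) and the proprotein convertase Pcsk5, and 0 in both proximal libraries. Among all tested genes these shares were 8.64% and 13.0%. The log2 differences were -0.84 ± 0.44 for Gpc1 and -0.45 ± 0.33 for Pcsk5 (SE).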
